A study of Mus musculus with 6 samples.

Results

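The Platr genes (pluripotency-associated transcripts) of the mouse were followed in whole testes at postnatal day 4. Members were all genes of the deposited count table whose identifier carries a GENCODE symbol made of Platr and a number, which gave 30 of 54232 genes. RNA was sequenced from 3 WT and 3 Dis3l2 cKO samples, all from mice given as B6D2F1 at day 4 after birth, and the series asks which genes differ between control and knockout testes. cKO stands here for a conditional knockout, and the labels name no Cre line and no deleted part of the gene. Nothing in them ties each sample to an animal of its own, so the p-values cover variation among these 6 samples that could be technical. Membership follows from the symbol, but Platr28 was set apart, chosen by its own counts in the comparison of cKO with WT, so its difference is described with no test.

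Platr transcripts are long noncoding RNAs that were named for an expression pattern: they are high in mouse embryonic stem cells and fall as the cells leave pluripotency. Their genes lie scattered over the genome and were grouped by expression, not by sequence. Platr14 is known for effects of its depletion on differentiation genes in stem cells, Platr4 for a part in the commitment to cardiac mesoderm, and Platr10 for a part in keeping stem cells pluripotent. In the young testis the cells closest to that state are the gonocytes and early spermatogonia, which keep some genes of the pluripotency network, such as Pou5f1. DIS3L2 is an exoribonuclease that works from the 3′ end of RNAs, mainly those with an added tail of uridines.

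Total counts per library ranged from 26126694 to 43265614. All 14 Sertoli cell, 24 germ cell and 8 Leydig cell markers that were listed passed the filter on low counts. The marker lists were chosen with earlier results of these data known. Counts over the whole Dis3l2 gene were 32.0 ± 0.93 CPM (reads per 1000000 counted reads, with library totals scaled by the TMM method) in WT and 31.7 ± 1.65 CPM in cKO (SD, n = 3 each), and a count over all exons does not check a deletion of some of them. An edgeR quasi-likelihood test compared cKO with WT over 20153 genes (called at adjusted p under 0.05), of which 4.94% fell and 3.4% rose. Of the 24 germ cell markers, 18 fell, 0 rose and 6 did not pass. Their median log2 fold change was -0.73, beside 0.01 for all genes, and they summed to 1621 to 1712 CPM per WT library and 933 to 988 CPM per cKO library. Of the other marker lists, 4 of 14 Sertoli cell, 4 of 8 Leydig cell, 4 of 10 macrophage and leukocyte and 1 of 8 endothelial genes rose, while 1 Sertoli cell, 2 of 7 stromal and 2 of 8 duct epithelium genes fell and 0 of 6 peritubular myoid genes moved either way. In bulk tissue, fewer cells of a type and less RNA per cell cannot be told apart.

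Of the 30 Platr genes, 20 are annotated as lincRNA, 6 as processed transcript, 1 as antisense, 1 as sense intronic and 2 (Platr17 and Platr25) as protein coding. They lie on 13 chromosomes, 7 of them on chromosome 2 and 5 on chromosome 1, and 19 have a single annotated transcript. All 30 had the same position and strand in the gene models of the files and in GENCODE M21 (GRCm38). The sequences below belong to the members that carry the main differences and to a pair of members that did not pass the test. Platr28 (ENSMUSG00000057215.6) lies on chromosome 7 from 107243022 to 107300396 on the plus strand, and its 1 transcript has 6 exons and 1294 bases. Its exon 1 (GRCm38, chr7:107243022-107243128) is shown as the 5′ start of the RNA, with no part marked.
Platr28 exon 1: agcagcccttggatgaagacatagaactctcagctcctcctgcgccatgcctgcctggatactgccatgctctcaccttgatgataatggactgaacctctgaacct
The last 100 bases of the Platr28 transcript (chr7:107300297-107300396) and of the Platr26 transcript (chr2:71730867-71730966, plus strand) show the 3′ end, with a polyadenylation signal (AATAAA or ATTAAA) in capitals.
Platr28 3′ end: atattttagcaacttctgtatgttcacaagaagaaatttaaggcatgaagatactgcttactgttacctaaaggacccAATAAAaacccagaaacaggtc
Platr26 3′ end: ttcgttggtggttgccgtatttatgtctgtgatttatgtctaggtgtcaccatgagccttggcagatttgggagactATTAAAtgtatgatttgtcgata
The signal starts 22 bases from the end in Platr28 and 23 bases from the end in Platr26. No run of T in these 100 bases is longer than 4 in Platr28 or 3 in Platr26, and over the 30 members the longest run lay between 2 and 8.

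RefSeq (GRCm38.p6) gave 15 promoter sequences of 300 bases (250 before and 50 after the start) for 13 of the members. Platr28 was not among them. Matches to 7 motifs, read on both strands, are in capitals: the octamer ATGCAAAT bound by POU factors, the SOX core AACAAT, the CCAAT box CCAAT, the GC box GGGCGG, the TATA box TATAAA, the E-box CACGTG and the ESRRB element TCAAGGTCA. The promoter of Platr26 (chr2:71719167-71719466, plus strand) held none of them.
Platr26 promoter: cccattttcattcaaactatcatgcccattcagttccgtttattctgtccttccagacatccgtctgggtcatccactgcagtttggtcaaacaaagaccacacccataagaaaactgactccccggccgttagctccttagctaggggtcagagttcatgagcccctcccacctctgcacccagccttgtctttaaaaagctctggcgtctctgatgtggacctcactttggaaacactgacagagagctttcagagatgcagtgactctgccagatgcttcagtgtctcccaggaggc
Platr14 (chr2:104559209-104559508, plus strand) and Platr20 (chr11:51220369-51220668, minus strand) had overlapping levels in both groups, and their promoters are shown for comparison.
Platr14 promoter: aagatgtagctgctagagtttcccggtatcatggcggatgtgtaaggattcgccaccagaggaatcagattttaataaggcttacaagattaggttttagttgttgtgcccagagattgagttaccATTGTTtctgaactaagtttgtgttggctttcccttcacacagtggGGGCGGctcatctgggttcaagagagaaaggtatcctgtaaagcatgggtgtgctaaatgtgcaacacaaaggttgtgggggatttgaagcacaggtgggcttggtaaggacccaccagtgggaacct
Platr20 promoter: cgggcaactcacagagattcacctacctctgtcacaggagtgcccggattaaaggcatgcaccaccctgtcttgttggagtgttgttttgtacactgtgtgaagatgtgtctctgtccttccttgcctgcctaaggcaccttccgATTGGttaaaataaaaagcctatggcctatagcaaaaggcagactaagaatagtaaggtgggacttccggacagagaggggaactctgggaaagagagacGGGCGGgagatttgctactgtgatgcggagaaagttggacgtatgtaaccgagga
The Platr14 promoter held a SOX core and a GC box, and that of Platr20 a CCAAT box and a GC box. The RefSeq start of Platr14 lies 296 bases inside the gene model used for counting, which starts at 104559163. The whole Platr14 sequence shown thus lies within the span of that gene model and not before it. Over the 15 promoters, 7 held a CCAAT box (37.4% of 32851 promoters in the table), 3 a GC box (35.7%), 3 a SOX core (10.7%), 1 a TATA box (13.6%), 1 an E-box (7.15%), 1 the octamer (1.74%, Platr21) and 0 the ESRRB element (0.423%). The median number of CG dinucleotides was 4 in the Platr promoters and 7 in all. A match to a motif is a description of letters and not a binding site.

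Of the 30 members, 10 were measurable, that is, passed the filter on low counts: Platr3, Platr4, Platr5, Platr14, Platr16, Platr20, Platr25, Platr26, Platr27 and Platr28. The filter asked for about 10 reads in a library of median size (0.281 CPM) in at least 3 libraries. Platr26 passed it in the 3 cKO libraries and in 0 WT libraries, so it could pass only by differing. Platr5 lay just inside with 1 WT and 2 cKO libraries over that level, while Platr21 (31 reads in WT and 21 in cKO) and Platr23 (27 and 20) lay just outside.

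**Figure D1:**
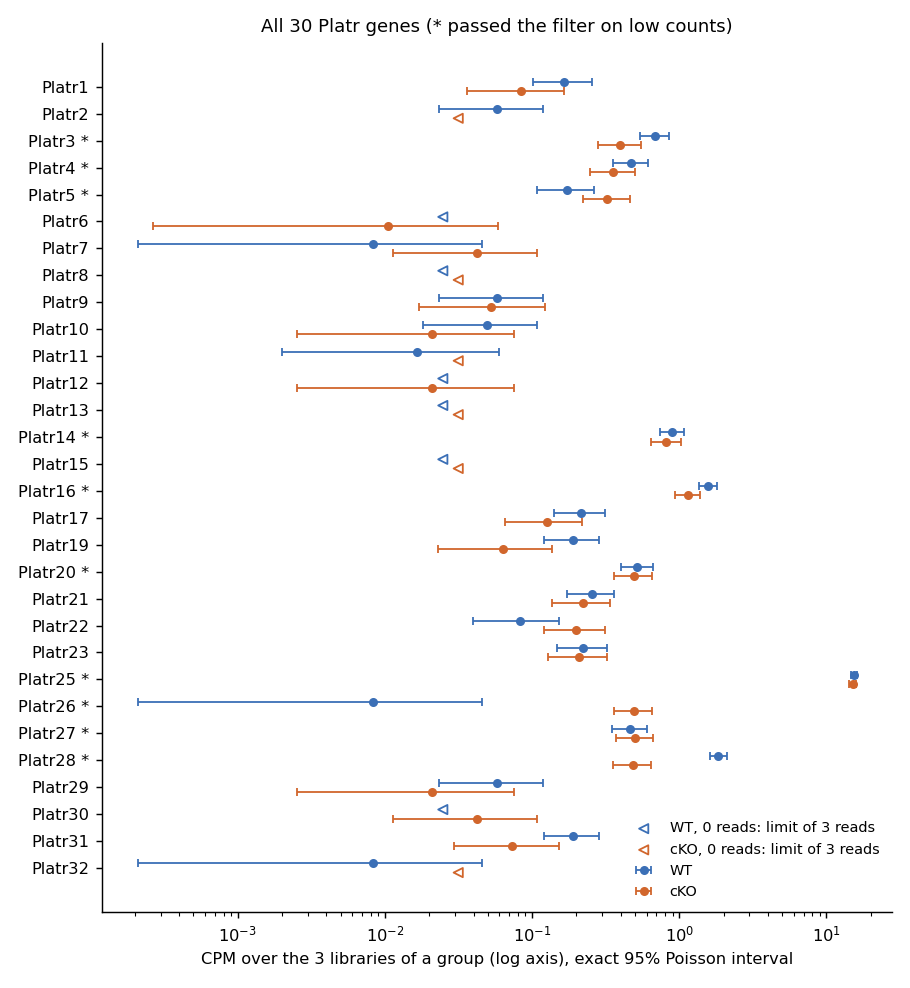
Level of all 30 Platr genes, as CPM from the summed reads of the 3 libraries of a group (log axis). Points are group values with exact 95% Poisson intervals, which cover counting error only, open triangles stand at the limit of 3 reads where a group had 0, and a star marks the 10 measurable genes. The intervals of WT and cKO lie far apart for Platr26 and Platr28. Platr28 was chosen on these values and Platr26 passed the filter only through cKO, so the gaps are described and not tested.

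Among the 20 members below the filter, 17 had at least 1 read and none had more than 21 in a library. Platr8, Platr13 and Platr15 had 0 reads in all 6 libraries, which allows up to 0.0247 CPM in WT and 0.0315 CPM in cKO. Platr10, the stem cell maintenance RNA, had 4, 2 and 0 reads in WT and 1, 1 and 0 in cKO. Platr11 had 2 reads in 1 WT library and 0 elsewhere. No member below the filter was tested.

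Some of these low members had reads in 1 group only. Platr2 had 5, 1 and 1 reads in WT and 0 in each cKO library, and Platr32 had 1 read in WT. A transcript of Platr2 has a copy at 97.9% identity in Gm26639 and one of Platr30 an identical copy in Gm17575, so the low counts of both are uncertain. Platr30 had 4 reads, Platr12 had 2 and Platr6 had 1, all in cKO. Single libraries could hold most of a member's reads: 21 of the 23 WT reads of Platr19 came from WT replicate 2. Platr31, which lies antisense to the metabolic regulator gene Tigar, had 3, 11 and 9 reads in WT and 2, 0 and 5 in cKO, and its groups overlapped. Platr17, annotated as coding, had 9, 7 and 10 reads in WT against 4, 6 and 2 in cKO, which overlap once scaled to library size. Its count is uncertain too, since part of a transcript has a copy at 98.8% identity in Gm7029. Platr22 had 6, 0 and 4 reads in WT against 10, 0 and 9 in cKO, and Platr1 had 2, 15 and 3 against 2, 6 and 0. Platr9, which overlaps the pituitary hormone subunit gene Cga on the other strand, had between 0 and 5 reads per library, Platr29 between 0 and 4, and Platr7 between 0 and 4.

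Per kilobase of exon, Platr25 stood highest in WT at 2.48 ± 0.12 CPM per kb (SD, n = 3, as for the values that follow). Platr16 had 2.33 ± 0.54, Platr3 had 1.66 ± 0.58 and Platr28 had 1.42 ± 0.41 CPM per kb. Platr27 followed at 0.738 ± 0.254, Platr14 at 0.563 ± 0.12, Platr20 at 0.477 ± 0.083, Platr5 at 0.285 ± 0.265 and Platr4 at 0.181 ± 0.086. Platr26 came last of the measurable members in WT, at 0.0124 ± 0.0214. The WT libraries of genes next to each other in this order overlapped, except between Platr28 and Platr27 and between Platr4 and Platr26. In cKO the order began the same way, with Platr25 at 2.43 ± 0.08, Platr16 at 1.70 ± 0.735 and Platr3 at 0.973 ± 0.258 CPM per kb. Platr28 there ranked below Platr20 (0.442 ± 0.164) at 0.374 ± 0.105, while Platr26 stood at 0.768 ± 0.263, beside Platr27 at 0.768 ± 0.515.

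**Figure D2:**
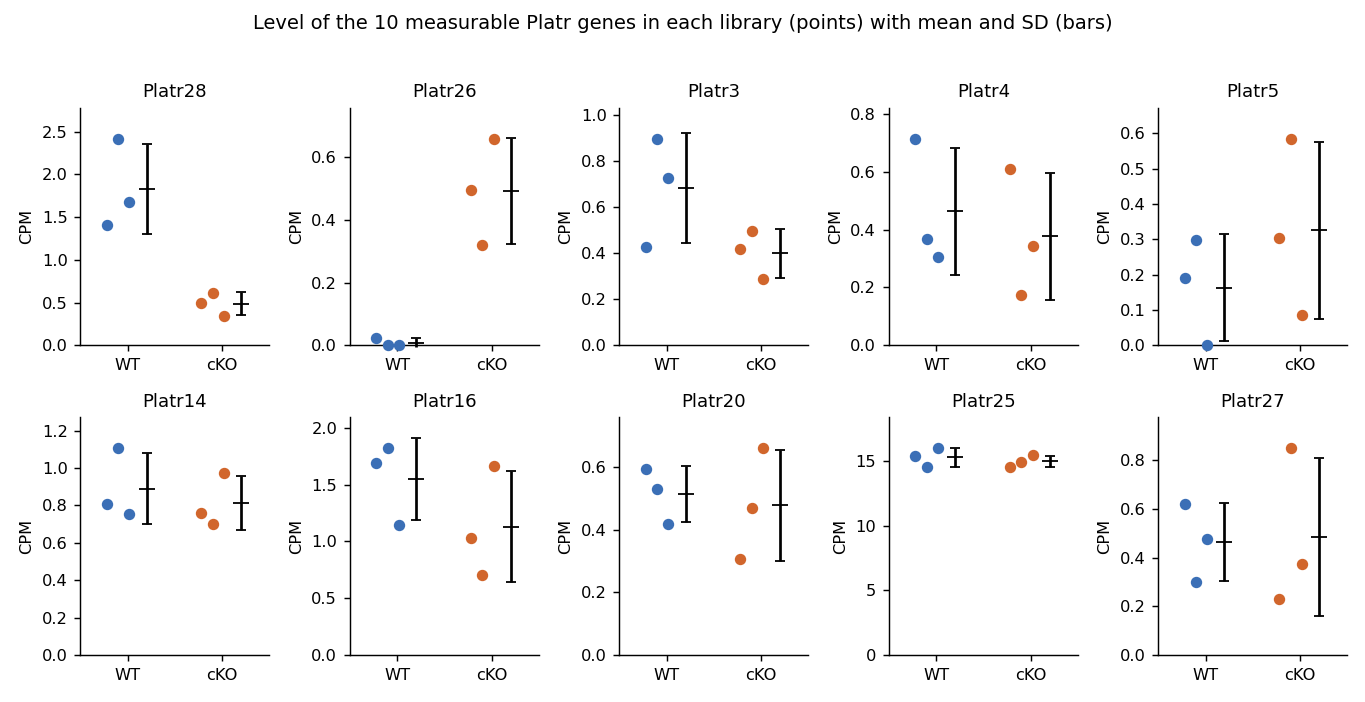
CPM of the 10 measurable Platr genes in each library, with 1 panel per gene and its own axis from 0. Points are libraries and bars are the mean and SD of 3 libraries. WT and cKO libraries are separate for Platr28, chosen on these values, and Platr26, which passed the filter only through cKO. They overlap for the other 8 genes.

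Platr28 was lower in the cKO testes. Its reads numbered 59, 105 and 60 in the WT libraries and 13, 21 and 12 in the cKO libraries. As scaled levels these were 1.40, 2.42 and 1.67 CPM in the WT libraries against 0.495, 0.614 and 0.344 CPM in cKO. The lowest WT library lay above the highest cKO library, and WT replicate 2 was the highest of the 6. The means were 1.83 ± 0.525 CPM in WT and 0.484 ± 0.135 CPM in cKO (SD, n = 3 each). The summed reads of the groups gave a level 3.83-fold lower in cKO, with a counting interval of 2.78 to 5.38. The fit put cKO against WT at a log2 fold change of -1.92 (SE 0.34), and it ran from -2.14 to -1.66 with each library left out in turn. Platr28 was chosen on these counts, so that range is no measure of stability. No other gene overlaps Platr28. No copy of its transcript at 95% identity over 30% of its length was found in another gene model. That search passes over shorter shared stretches, such as exon 1 alone.

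The values of Platr28 can be set beside those of the germ cell markers, which fell in the same samples. The median log2 fold change of the 24 markers was -0.73, and their range of -1.21 to -0.03 did not reach the -1.92 of Platr28. Platr28 was chosen on these same values, so nothing is read from its place beyond that range. Of the 26 long noncoding genes called lower, 6 had a lower log2 fold change than Platr28. The part of the germ cell markers' fall in the Platr28 values was not tested.

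The gene next to Platr28 on its lower side is Rbmxl2, on the same strand and 32105 bases away, which encodes an RNA-binding protein of male germ cells. It had 3.78, 5.78 and 6.19 CPM in the WT libraries against 3.50, 2.25 and 2.69 CPM in cKO, so that WT replicate 1 came close to cKO replicate 1. It fell by 0.91 on the log2 scale (SE 0.22, edgeR adjusted p = 0.025). The edgeR adjusted p missed the threshold without WT replicate 2 (0.127), WT replicate 3 (0.113), cKO replicate 2 (0.117) or cKO replicate 3 (0.0567). On the upper side the nearest gene model is the predicted miRNA gene Gm24932, with 2 reads in all.

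Platr26 was higher in the cKO testes. Its reads numbered 1, 0 and 0 in WT and 13, 11 and 23 in cKO. The scaled levels were 0.0238, 0 and 0 CPM in the WT libraries against 0.495, 0.322 and 0.659 CPM in cKO, so the groups did not overlap. The cKO libraries were thus the only ones with more than a single read. Summed over libraries the level was 59.8-fold higher in cKO, with a counting interval from 10.2 to 2412 that reflects the 1 read in WT. The fitted log2 fold change, 5.41, depends on the prior count and ran from 4.77 to 7.11 over the alternatives, the highest without WT replicate 1, which held the 1 WT read. No p is given for Platr26, since it entered the tested genes only through its cKO libraries.

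Platr26 is a lincRNA gene on chromosome 2 from 71719417 to 71730966, with 4 exons and 641 bases. No gene overlaps it and no copy of its transcript was found elsewhere by the same search. Its neighbours were low. The homeobox gene Dlx2, 172662 bases below and on the other strand, had 14, 4 and 13 reads in WT and 9, 5 and 16 in cKO (edgeR adjusted p = 0.852). Gm13647, a lincRNA gene 6848 bases above on the same strand, had 2 reads in cKO replicate 1 and 0 elsewhere.

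**Figure D3:**
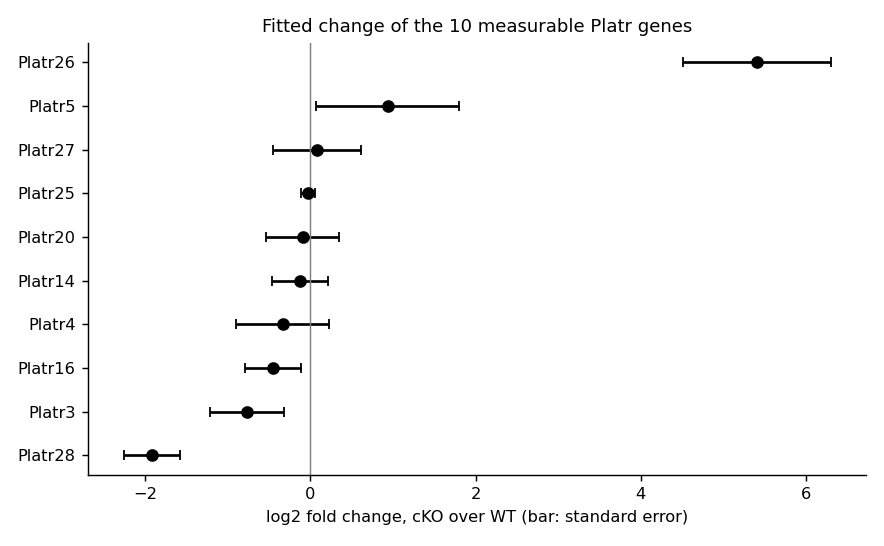
Fitted log2 fold change of cKO over WT for the 10 measurable Platr genes (x axis, points with standard errors). Platr28 stands at -1.92 and Platr26 at 5.41, a value that depends on the prior count because WT had 1 read, and the other 8 lie between -0.77 and 0.94.

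The other 8 measurable members did not pass the test. Over all 20153 genes, 8.34% were called, 4.94% lower and 3.4% higher, and among the 1804 long noncoding genes tested 1.44% and 2.05%. For genes within the level range of the measurable members without Platr25 (0.244 to 1.34 CPM) the shares were 0.8% and 0.664%. The same fit put 1 of the 10 members, Platr28, past the threshold as lower and 1, Platr26, as higher, but Platr28 was chosen on these values and Platr26 could pass the filter only by differing, so nothing is read from these counts. Groups that do not overlap were seen in the same 2 of these 10 members, beside 14.6% and 13.6% of all genes tested. As a description, the 9 members without Platr28 had a median log2 fold change of -0.09, with 6 below 0, and that of all genes was 0.01. Summed over all 30 genes the level was 23.2, 24.1 and 23.1 CPM in the WT libraries against 20.7, 21.02 and 21.8 CPM in cKO. Most of that level, in both groups, came from Platr25. Without Platr25 the other 29 genes, Platr28 among them, had 7.78, 9.53 and 7.11 CPM in WT against 6.17, 6.05 and 6.36 CPM in cKO. Without Platr25 and Platr28 the other 28 genes summed to 6.38, 7.11 and 5.44 CPM in the WT libraries against 5.68, 5.44 and 6.02 CPM in cKO, and those groups overlapped.

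Platr25 was the most precisely measured member. It had 649, 632 and 574 reads in WT and 382, 512 and 540 in cKO, or 15.4, 14.6 and 16.0 CPM against 14.6, 14.97 and 15.5 CPM. The groups overlapped almost wholly, with means of 15.3 ± 0.74 and 15 ± 0.46 CPM (SD, n = 3 each). The log2 fold change was -0.03 (SE 0.09, edgeR adjusted p = 0.886). Part of a transcript of Platr25 has a copy at 97.7% identity in Gm40977, and 2 other gene models lie inside its span on the same strand, so its count is uncertain to that extent.

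Platr16 and Platr3 had lower fitted levels in cKO that did not pass. Platr16 had 1.69, 1.82 and 1.14 CPM in the WT libraries against 1.03, 0.702 and 1.66 CPM in cKO, with cKO replicate 3 inside the WT range. Its log2 fold change was -0.45 (SE 0.34, edgeR adjusted p = 0.475). Platr16 overlaps Gm13230, a transcribed pseudogene on the same strand that is identical to it over 53.2% of a 545-base transcript. By the defaults of the counting tool, reads that lie over both genes are left out, so both counts are uncertain. Gm13230 itself had 4.12 ± 1.24 CPM in WT and 3.41 ± 0.32 CPM in cKO (SD, n = 3 each). Platr3 had 0.428, 0.898 and 0.725 CPM in the WT libraries against 0.419, 0.497 and 0.287 CPM in cKO. WT replicate 1 alone lay among the cKO libraries. The log2 fold change of Platr3 was -0.77 (SE 0.45, edgeR adjusted p = 0.338). Its neighbour Plcb4, a phospholipase C gene 6947 bases above on the same strand, had 94.7 ± 4.2 CPM in WT and 107.0 ± 6.3 CPM in cKO (SD, n = 3 each; edgeR adjusted p = 0.103).

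The WT and cKO means of Platr14 and of Platr20 differed by less than the SDs of either group. Platr14, the differentiation-linked RNA, had 0.809, 1.11 and 0.753 CPM in the WT libraries against 0.762, 0.702 and 0.975 CPM in cKO. The libraries of the groups were interleaved, and the log2 fold change was -0.13 (SE 0.34, edgeR adjusted p = 0.870). Platr20 had 0.595, 0.530 and 0.418 CPM in the WT libraries against 0.305, 0.468 and 0.659 CPM in cKO, with the cKO libraries at both extremes. Its log2 fold change was -0.09 (SE 0.44, edgeR adjusted p = 0.930). The predicted coding gene Gm12569 starts 54 bases from Platr20 on the other strand and had 34, 46 and 35 reads in WT and 12, 18 and 22 in cKO. It did not pass either (edgeR adjusted p = 0.192 at a log2 fold change of -0.81, SE 0.35).

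Platr4, Platr27 and Platr5 varied widely between libraries of the same group. Platr4, the mesoderm-linked RNA, had 30, 16 and 11 reads in WT and 16, 6 and 12 in cKO, and replicate 1 was the highest in both groups (edgeR adjusted p = 0.782 at a log2 fold change of -0.34, SE 0.56). Platr27 had 26, 13 and 17 reads in WT and 6, 29 and 13 in cKO. The cKO libraries of Platr27 held both the highest and the lowest count (edgeR adjusted p = 0.949 at a log2 fold change of 0.08, SE 0.53). The coding gene Blcap, 24308 bases below Platr27 on the same strand, had 17.2 ± 1.4 CPM in WT and 16.6 ± 1.3 CPM in cKO (SD, n = 3 each). Platr5 had 8, 13 and 0 reads in WT and 8, 20 and 3 in cKO, with WT replicate 3 at 0 (edgeR adjusted p = 0.579 at a log2 fold change of 0.94, SE 0.86).

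Over the 10 measurable members, 24 other gene models overlapped or stood next to them, of which 10 passed the filter. Rbmxl2 was the 1 that fell, 0 rose and 9 did not pass, beside 4.94% lower and 3.4% higher among all genes tested. A polyadenylation signal lay within the last 50 bases of the longest transcript in 7 of the 10 measurable members and in 6 of the 20 others. The shares were 55.7% of the 1804 long noncoding genes that passed the filter and 39.4% of the 7768 that did not. Exonic length was 412 to 6180 bases (median 872) in the measurable members and 375 to 4041 (median 1408) in the others.

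With earlier results of these data known, a list of 34 genes was chosen to follow the pluripotency network. Of these, 27 were measurable, 8 fell and 1 rose, while 18 did not pass, beside 4.94% of all genes lower and 3.4% higher. Their median log2 fold change was -0.36, beside 0.01 for all genes. Pou5f1, which encodes the core factor OCT4, fell from 8.24 ± 0.49 to 4.31 ± 0.39 CPM (SD, n = 3 each; edgeR adjusted p = 0.000988 at a log2 fold change of -0.93, SE 0.13). Zfp42, the stem cell marker also called Rex1, had 3.97, 2.12 and 3.21 CPM in the WT libraries against 1.18, 1.34 and 1.20 CPM in cKO, with no overlap. It fell by 1.31 on the log2 scale (SE 0.26, edgeR adjusted p = 0.00878), a call lost without WT replicate 1 (0.0553). Nanog, another core factor, was below the filter at 0.157 ± 0.097 CPM in WT and 0.233 ± 0.135 CPM in cKO (SD, n = 3 each).

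Sox2, the partner of OCT4, had 0.529 ± 0.317 CPM in WT and 0.818 ± 0.418 CPM in cKO (SD, n = 3 each; edgeR adjusted p = 0.556). The nuclear receptor gene Esrrb did not pass either, at 1.61 ± 0.32 and 1.36 ± 0.32 CPM (SD, n = 3 each; edgeR adjusted p = 0.656). The stem cell ubiquitin ligase gene Trim71 (-0.76), the let-7 inhibitor gene Lin28b (-1.16) and the zinc finger gene Sall4 (-0.48) fell, as log2 fold changes with edgeR adjusted p of 0.000104, 0.000468 and 0.00175. The 1 gene that rose was Klf4, a reprogramming factor, named after its values were seen (edgeR adjusted p = 0.0204 at a log2 fold change of 0.29, SE 0.07). Leaving out any 1 library other than cKO replicate 1 ended the call, with edgeR adjusted p from 0.0567 to 0.135. L1td1, a stem cell RNA-binding protein gene also named after its values were seen, had 1.09, 0.483 and 0.335 CPM in the WT libraries against 1.6, 1.32 and 2.04 CPM in cKO and missed the threshold (edgeR adjusted p = 0.0621 at a log2 fold change of 1.36, SE 0.41). It passed in 6 of 13 alternatives, among them DESeq2 (adjusted p = 0.0171) and limma-voom (0.0376), and the adjusted p over all 13 ran from 0.00485 to 0.224.

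Other long noncoding RNAs known from stem cells made a list of 9, also chosen with earlier results known. Of the 9, 7 were matched by symbol and 6 were measurable. Of these, 2 rose, 0 fell and 4 did not pass. Among all genes tested 3.4% rose and 4.94% fell, and among long noncoding genes 2.05% and 1.44%. Firre, which shapes chromosome contacts in the nucleus, rose from 13.4 ± 0.6 to 18.6 ± 2.3 CPM (SD, n = 3 each; edgeR adjusted p = 0.015 at a log2 fold change of 0.47, SE 0.10), and its call was lost without WT replicate 1, 2 or 3 (0.0554, 0.0737 and 0.0767). The snoRNA host gene Gas5 rose from 98.3 ± 3.2 to 120.5 ± 16.4 CPM (SD, n = 3 each; edgeR adjusted p = 0.0498), and its call was lost with DESeq2 size factors (0.0516), with total counts alone (0.0714), with at least 1 CPM in 3 libraries (0.0507) and without WT replicate 1, 2 or 3 or cKO replicate 2 (0.107 to 0.178).

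**Figure D4:**
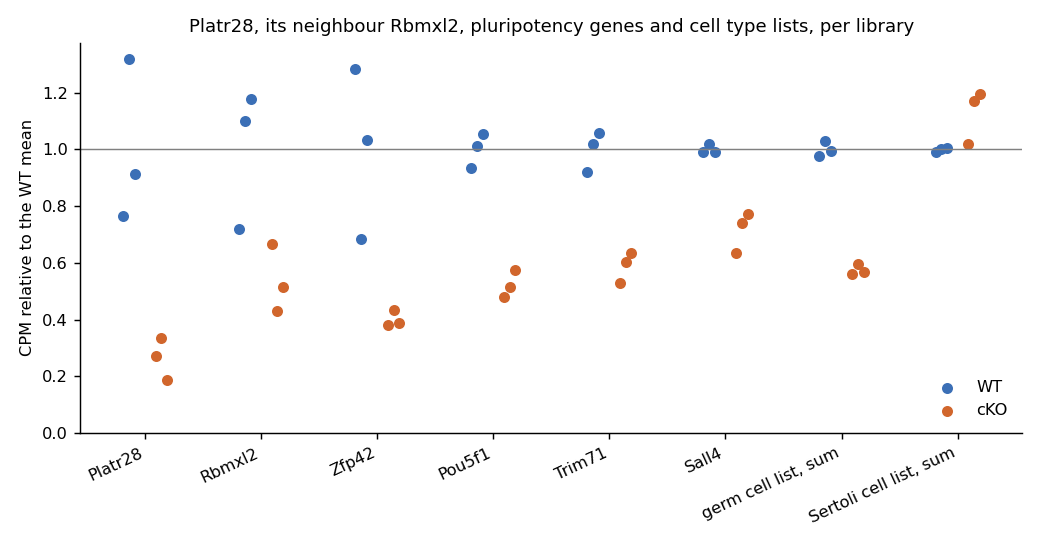
CPM in each library divided by the WT mean, for Platr28, its neighbour Rbmxl2, 4 pluripotency genes and the summed germ cell and Sertoli cell marker lists. The 4 pluripotency genes were all taken from those called lower. Of the 27 measurable genes of that list, 8 fell, 1 rose and 18 did not pass. The cKO libraries of Platr28 stand at 0.188 to 0.335 of the WT mean, those of Pou5f1 at 0.481 to 0.574 and those of the germ cell sum at 0.562 to 0.595.

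Relative to the WT mean, Platr28 stood at 0.270, 0.335 and 0.188 in the cKO libraries. Zfp42 stood at 0.381, 0.434 and 0.388, and the germ cell sum at 0.562, 0.595 and 0.569. The Sertoli cell sum was 1.02 to 1.19 of its WT mean in cKO, with cKO replicate 1 the lowest. No difference between these genes was tested, and the comparison shares its libraries throughout.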

How the data were processed

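RNA-seq of whole testes was deposited as a table of raw counts per gene for 3 WT and 3 cKO samples. Per the file headers, the authors counted reads with featureCounts 1.6.4 (strand setting 1) on GENCODE M18 gene models, with reads not counted as pairs. By that tool's defaults, reads that map to several places or lie over several genes are left out. Per the submitters' processing notes, cutadapt and HISAT2 were used with build GRCm38.p5. The labels' protocols describe random and poly(T) priming with depletion of unwanted transcripts, while the molecule is given as polyA RNA. The exon length per gene is a deposited column, used for CPM per kb.

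Genes were named from GENCODE M21 (54079 of 54232 matched), and 0 count columns were left without a sample. Counts were filtered with filterByExpr (minimum count 10, minimum total 15), scaled by TMM and compared with the edgeR 4.0.16 quasi-likelihood test in R 4.3.3 (two-sided, no covariates, Benjamini-Hochberg over 20153 genes, called at adjusted p under 0.05). CPM uses TMM-scaled library sizes. Intervals are exact at 95%, and limits for 0 reads stand for 3 counts. Both cover counting error only. Copies were sought with minimap2 2.31-r1302 (95% identity over 30% of a transcript). The procedure was run on simulated data with the same dispersion for every gene, which checks the code and not the calls given here. Alternatives used other scalings and filters, DESeq2 1.42.0, limma-voom (limma 3.58.1), the replicate number as a block and each library left out in turn. Cell type markers were counted by list and not named. Named genes were the members, their neighbours, Pou5f1, Nanog, Sox2, Esrrb, Zfp42 and Dis3l2. Added to these were up to 4 called genes with the lowest p of the pluripotency list and of the other stem cell RNA list. Exceptions are marked. The members and lists were chosen with earlier results of these data known.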

Additional observations from a re-analysis of the deposited data

How the results depend on the processing

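The count of genes called was 1681 and stayed within 1.5 times of that under other scalings, filters and tests, but ran from 623 (without WT replicate 2) to 3375 (without cKO replicate 1) with single libraries left out. The count of Platr members past the threshold rests on Platr28, chosen on these values, and Platr26, which passed the filter only through cKO, so it is no measure of stability. It was 2, except that it was 1 where at least 1 CPM in 3 libraries was asked, which leaves 3 members, and 1 in DESeq2, where Platr26 has no adjusted p. With no filter, 27 members could be fitted and the same 2 passed. With the replicate block 1798 genes and the same 2 members passed. Same-numbered libraries had correlations of 0.0313, 0.0126 and 0.0652 in their deviations. WT replicate 2 correlated more with cKO replicate 1 (0.0225) than with its own number, and every other library correlated best with its own number. Correlations this small do not settle whether same-numbered samples were paired. Signs were not settled for several members that did not pass. Platr27 (0.08) was -0.0080 in limma-voom and -0.0059 with the replicate block. With libraries left out, the log2 fold change ran from -0.60 to 0.39 for Platr27, from -0.83 to 0.12 for Platr4, from -0.40 to 0.12 for Platr20, from -0.29 to 0.060 for Platr14 and from -0.066 to 0.0017 for Platr25. The median of the 9 members without Platr28 ran from -0.29 to 0.02. The log2 fold change also crossed 0 for the neighbours Dlx2 (-0.14 to 0.63), Gm13230 (-0.39 to 0.0028), Blcap (-0.11 to 0.0043) and Gm7045 (-0.94 to 0.11), and for Dis3l2 (-0.058 to 0.013). Counts of 30 or fewer per library limit most members.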
